A study of Mus musculus with 6 samples.

Results

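Haemoglobin and erythroid genes were followed through 6 total RNA libraries of regulatory T cells (Treg cells, the suppressive CD4 lineage marked by Foxp3) sorted from subcutaneous B16F10 tumours, a mouse melanoma line. The members are 7 genes chosen by symbol, Hba-a1, Hba-a2, Hbb-bs, Hbb-bt, Alas2, Slc4a1 and Gata1, out of 54446 genes counted in each library. All 7 were found by Ensembl identifier in GENCODE M21 (mm10). Of them, 6 passed the low-count filter, together with 13172 genes in all, and Gata1 did not.

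The libraries labelled Ythdf2 cKO (3) came from Foxp3Cre mice with both Ythdf2 alleles floxed (fl/fl), and the control libraries (3) from Foxp3Cre mice with 1 floxed allele (fl/+). Both groups therefore carry the Foxp3-driven Cre recombinase, which acts in cells that express Foxp3. The sample titles nevertheless name the control libraries WT Control. The labels also give a cage. Ythdf2 cKO replicates 2 and 3 and control replicate 3 came from cage 2, and Ythdf2 cKO replicate 1 and control replicates 1 and 2 from cage 1. Red cells were lysed with ACK buffer before CD4 bead enrichment and a sort for live CD45+ CD4+ GFP+ cells. The labels used here give no age or strain, and do not state whether the libraries came from different animals. The p-values below therefore rest on the spread of these 6 samples alone, whose source may be technical.

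Red cells are made from precursors that switch on a small set of genes at very high levels and then lose their nucleus. The alpha chains (Hba-a1 and Hba-a2) and the adult beta chains (Hbb-bs and Hbb-bt) pair into haemoglobin, Alas2 encodes the erythroid form of the first enzyme of haem synthesis, and Slc4a1 encodes band 3, the anion exchanger of the red cell membrane. Gata1 encodes a transcription factor that drives these genes in the nucleated precursors and is also used by megakaryocytes, mast cells and eosinophils.

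The 2 alpha genes lie on chromosome 11 (Hba-a1, ENSMUSG00000069919, at 32283511 to 32284465, Hba-a2, ENSMUSG00000069917, at 32296489 to 32297298, plus strand) and the 2 beta genes on chromosome 7 (Hbb-bs, ENSMUSG00000052305, at 103826534 to 103828096, Hbb-bt, ENSMUSG00000073940, at 103812524 to 103813996, minus strand). Slc4a1 (ENSMUSG00000006574) is on chromosome 11 (102348824 to 102366203), Alas2 (ENSMUSG00000025270) on X (150547375 to 150570638) and Gata1 (ENSMUSG00000031162) on X (7959260 to 7978071). No other annotated gene overlapped a member, except that Apex2 and Mir3620, on the opposite strand, overlap Alas2. The 2 copies of each globin pair are near-identical in their coding sequences. The coding sequences of Hba-a1 and Hba-a2 (429 bases each) differ at 1 base, C381T, and those of Hbb-bs and Hbb-bt (444 bases each) at 1 base, C417T, with positions counted from the first base of the start codon and the first-named gene's base given first. The copies also differ outside the coding sequence, so the split of reads within a pair does not rest on these bases alone. The stretches that hold the coding differences are shown, and the capital marks the differing base.
Hba-a1 (chr11:32284313-32284367, mm10, plus strand): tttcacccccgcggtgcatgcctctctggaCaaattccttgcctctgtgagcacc
Hba-a2 (chr11:32297130-32297184, mm10, plus strand): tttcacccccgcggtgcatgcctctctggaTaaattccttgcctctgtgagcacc
Hbb-bs (chr7:103826668-103826722, mm10, minus strand): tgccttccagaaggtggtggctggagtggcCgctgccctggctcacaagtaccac
Hbb-bt (chr7:103812659-103812713, mm10, minus strand): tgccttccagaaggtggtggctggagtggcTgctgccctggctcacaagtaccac

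Over the annotated transcripts, 67.9% of the 75-base stretches of Hba-a1 and 84.6% of those of Hba-a2 also occur in the other alpha gene. For the beta pair the shares were 51.5% of Hbb-bs and 56.6% of Hbb-bt. Alas2, Slc4a1 and Gata1 shared 0 such stretches with any annotated transcript of another gene. Reads aligned to several places were kept by the authors in a row that names no gene, so the globin counts do not include them. How a read that fits both copies was treated is uncertain for single members, and sums over a pair are given beside them. Such sums do not restore reads that were left out.

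The promoters are shown because 6 of the members were high in the same library. RefSeq promoters (GRCm38.p6) were found for 6 of the 7 members, all but Slc4a1. The 250 bases before the RefSeq start are printed, 5′ to 3′ on the gene's strand, with 4 kinds of motif in capitals where they occur on either strand. That start differs from the GENCODE gene start given above. Each window reaches into the GENCODE gene, and that of Gata1 lies wholly inside it. These are GATA (written AGATAA or as AGATAG, and likewise TGATAA or as TGATAG), the CACC box (CCNCNCCC), the CCAAT box (CCAAT) and a TATA-like run (ATATAA).
Hba-a1 (chr11:32283422-32283671, plus strand): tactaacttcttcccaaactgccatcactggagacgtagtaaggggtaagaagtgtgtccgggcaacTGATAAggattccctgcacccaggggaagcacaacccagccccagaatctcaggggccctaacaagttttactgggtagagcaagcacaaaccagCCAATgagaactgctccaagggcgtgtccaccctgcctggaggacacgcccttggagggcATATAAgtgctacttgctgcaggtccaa
Hbb-bs (chr7:103827929-103828178, minus strand): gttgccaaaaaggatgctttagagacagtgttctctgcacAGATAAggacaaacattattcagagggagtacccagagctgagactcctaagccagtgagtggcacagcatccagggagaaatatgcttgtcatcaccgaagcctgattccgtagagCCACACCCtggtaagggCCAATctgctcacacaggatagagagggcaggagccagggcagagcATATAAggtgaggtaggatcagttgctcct
Hbb-bt (chr7:103813924-103814173, minus strand): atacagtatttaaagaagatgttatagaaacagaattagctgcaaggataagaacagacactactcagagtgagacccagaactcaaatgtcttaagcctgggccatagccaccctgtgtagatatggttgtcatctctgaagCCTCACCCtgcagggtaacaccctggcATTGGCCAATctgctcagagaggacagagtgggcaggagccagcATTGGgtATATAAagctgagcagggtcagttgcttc
Alas2 (chrX:150547167-150547416, plus strand): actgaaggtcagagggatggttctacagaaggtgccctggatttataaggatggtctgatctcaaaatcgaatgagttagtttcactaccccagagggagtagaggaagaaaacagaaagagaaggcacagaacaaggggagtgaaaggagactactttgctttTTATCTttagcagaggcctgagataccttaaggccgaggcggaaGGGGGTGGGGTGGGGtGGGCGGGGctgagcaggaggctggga
Gata1 (chrX:7967911-7968160, minus strand): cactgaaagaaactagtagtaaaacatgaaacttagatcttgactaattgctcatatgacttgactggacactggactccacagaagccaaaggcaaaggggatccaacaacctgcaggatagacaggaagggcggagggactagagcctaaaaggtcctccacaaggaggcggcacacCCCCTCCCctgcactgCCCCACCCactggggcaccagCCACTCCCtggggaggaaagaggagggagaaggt

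The windows of Hba-a1 and Hba-a2 are identical over 247 bases and offset by 3, so Hba-a2 is not printed. Those of Hbb-bs and Hbb-bt are 71.7% identical in aligned bases. All 4 globin windows hold a TATA-like run and a CCAAT box. Anywhere in the window, these occur in 9.1% and 33.8% of 32817 promoter windows of the same length. In the globin windows the TATA-like run lies within 31 bases before the start, a position for which no share over all windows was counted. A GATA match was found in the windows of Hba-a1, Hba-a2, Hbb-bs and Alas2 and in 26.6% of all windows, and a CACC box in those of Hbb-bs, Hbb-bt, Alas2 and Gata1 and in 45.9% of all. Some of the CACC matches of Alas2 overlap each other. A match of letters is a description of the window and does not show binding.

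The libraries held 5602053 to 13602069 gene counts. Ythdf2 itself stood at 89.8, 104.1 and 103.6 CPM in Ythdf2 cKO replicates 1, 2 and 3, against 123.7, 101.8 and 92.8 CPM in the controls (CPM, counts per 1000000 of the TMM-scaled library size, a scaling that sets most genes equal between libraries), and did not differ past the threshold (log2 fold change -0.10, edgeR adjusted p = 1). The counts cover all exons, so a deletion of some exons need not show in them, and directions are given for the libraries as labelled. Foxp3 was at 357 to 605 CPM in the 3 cKO libraries and 323 to 494 CPM in the controls.

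Globin reads were found in all 6 libraries at low levels, and Ythdf2 cKO replicate 2 stood apart. The 4 globin genes together took 20.9, 136 and 12.3 reads per 1000000 gene counts in Ythdf2 cKO replicates 1, 2 and 3, against 0.38, 4.41 and 15.4 in control replicates 1, 2 and 3. The exact (Clopper-Pearson) 95% intervals ran from 129 to 144 in Ythdf2 cKO replicate 2 and from 0.104 to 0.974 in control replicate 1, and cover counting error only, since reads are not independent molecules. The groups overlapped, because control replicate 3 lay above Ythdf2 cKO replicate 3. Of the 1788 globin reads in the series, 75.8% came from Ythdf2 cKO replicate 2. In these bulk samples more cells of a type and more RNA per cell cannot be told apart.

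**Figure D1:**
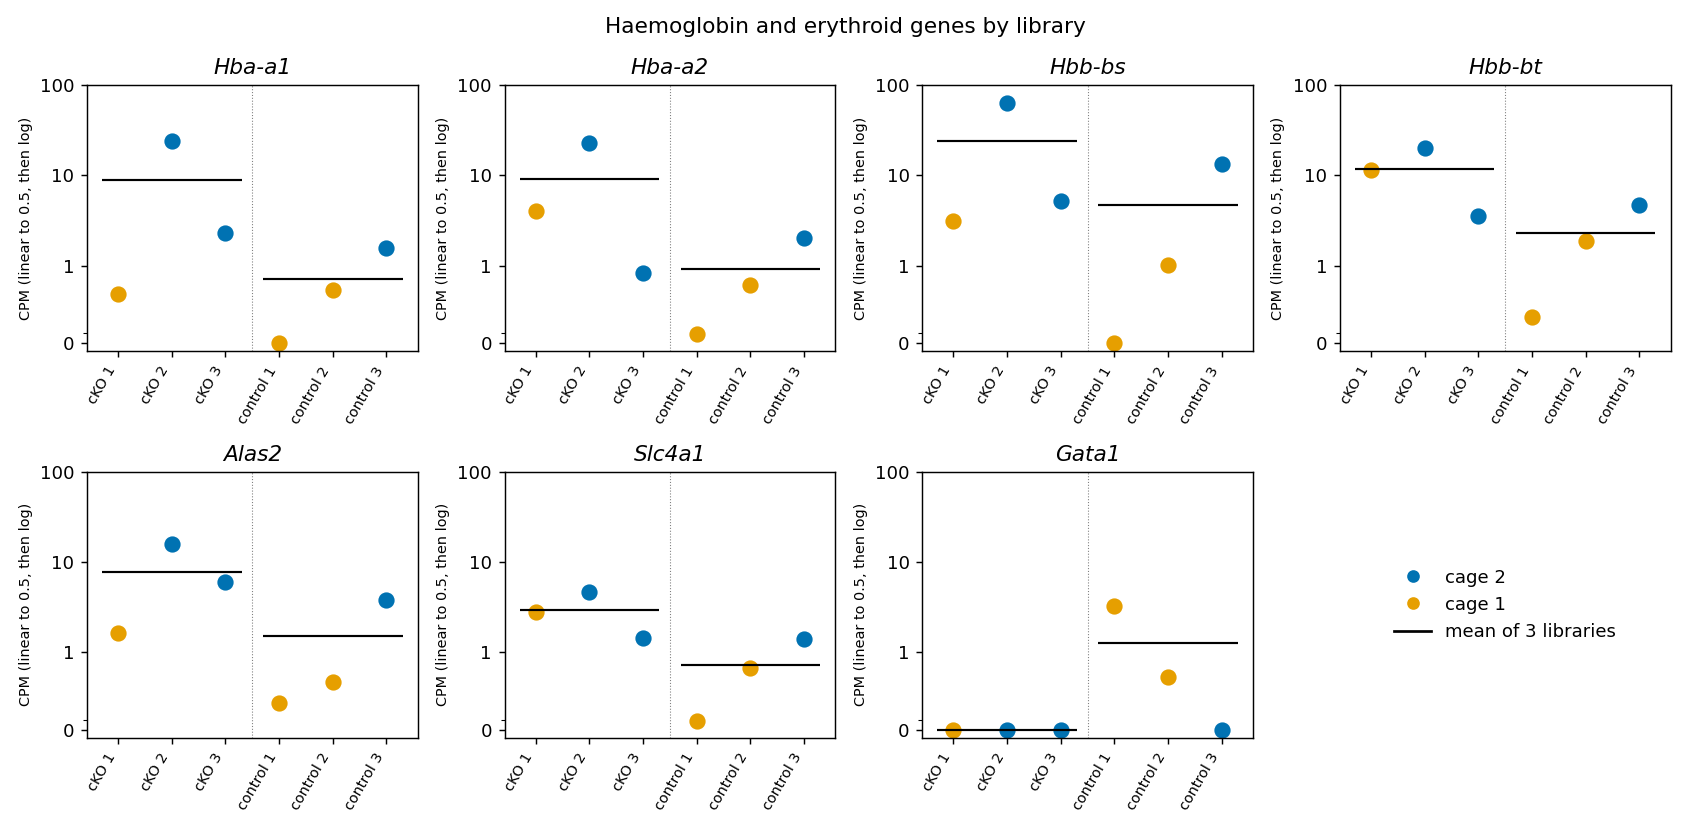
Level of each gene in CPM (linear up to 0.5, then log) in the 3 libraries labelled Ythdf2 cKO and the 3 controls, with points coloured by cage and a line at each group's mean. Ythdf2 cKO replicate 2 is the highest library for all members but Gata1, which has reads in control replicates 1 and 2 alone.

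The alpha chain genes were highest in Ythdf2 cKO replicate 2 by a wide margin. Hba-a1 was read 3, 251 and 22 times in Ythdf2 cKO replicates 1, 2 and 3 (0.490, 24.1 and 2.28 CPM), against 0, 8 and 10 times in control replicates 1, 2 and 3 (0, 0.540 and 1.57 CPM). Hba-a2 was read 25, 234 and 8 times (4.08, 22.5 and 0.828 CPM), against 1, 9 and 13 times in the controls (0.0880, 0.607 and 2.04 CPM). For both genes the groups overlapped, and Ythdf2 cKO replicate 2 exceeded the next library 10.6-fold for Hba-a1 and 5.52-fold for Hba-a2. Mean levels were 8.97 ± 13.2 CPM for the cKO libraries and 0.704 ± 0.799 CPM for the controls for Hba-a1, and 9.14 ± 11.7 CPM for the cKO libraries and 0.913 ± 1.01 CPM for the controls for Hba-a2 (SD, n = 3 each), so the SD exceeded the mean in each group.

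The beta chain genes followed the same library, with control replicate 3 or Ythdf2 cKO replicate 1 next. Hbb-bs was read 19, 660 and 50 times in Ythdf2 cKO replicates 1, 2 and 3 (3.10, 63.5 and 5.17 CPM), against 0, 15 and 84 times in the controls (0, 1.01 and 13.2 CPM). Hbb-bt was read 70, 211 and 34 times (11.4, 20.3 and 3.52 CPM), against 3, 28 and 30 times in the controls (0.264, 1.89 and 4.72 CPM). The highest library for Hbb-bs was 4.80-fold above control replicate 3. For Hbb-bt it was 1.78-fold above Ythdf2 cKO replicate 1, where it gave 70 of the 117 globin reads.

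The haem enzyme and the membrane transporter were also highest in Ythdf2 cKO replicate 2. Alas2 had 10, 165 and 58 reads in Ythdf2 cKO replicates 1, 2 and 3 (1.63, 15.9 and 6.0 CPM), against 3, 7 and 24 reads in the controls (0.264, 0.472 and 3.77 CPM). Slc4a1 had 17, 49 and 14 reads (2.78, 4.71 and 1.45 CPM), against 1, 10 and 9 reads in the controls (0.0880, 0.674 and 1.42 CPM). Slc4a1 was the member whose genotype groups did not overlap, by the narrow gap between 1.45 CPM in Ythdf2 cKO replicate 3 and 1.42 CPM in control replicate 3. Slc4a1 passed the low-count filter only through the libraries labelled Ythdf2 cKO, so this lack of overlap was largely set by the filter. Among all genes tested, 3.4% had groups that did not overlap with the libraries labelled Ythdf2 cKO higher, and 7.62% in either direction.

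Gata1 went against the other 6. It had 0 reads in all 3 libraries labelled Ythdf2 cKO, against 37, 8 and 0 reads in control replicates 1, 2 and 3 (3.26, 0.540 and 0 CPM). The highest library, control replicate 1, was the one with the fewest globin reads, 4. A count of 0 allows up to 0.490, 0.289 and 0.310 CPM (3 counts) in Ythdf2 cKO replicates 1, 2 and 3. Of the 45 control reads, 37 came from control replicate 1. The difference in means did not pass a test (exact two-sided permutation p = 0.4, where 3 against 3 cannot go below 0.1), nor in the fit without a low-count filter (edgeR adjusted p = 0.849). By cage, Gata1 had 0 reads in all 3 libraries of cage 2, against 0, 37 and 8 in those of cage 1 (exact two-sided permutation p = 0.4; edgeR adjusted p = 0.413 without the filter).

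Per kilobase of exon, the mean level over the 6 libraries was 18.7 CPM per kb for Hbb-bs, 9.98 for Hbb-bt, 7.53 for Hba-a2, 5.96 for Hba-a1, 1.94 for Alas2, 0.379 for Slc4a1 and 0.260 for Gata1. The ranges of neighbouring genes in that order overlapped over the libraries, and in the 3 libraries of cage 1 Hbb-bt lay above Hbb-bs per kilobase. In Ythdf2 cKO replicate 2, which holds most of the reads, the levels were 82.6, 28.9, 33.7, 29.7, 6.60, 0.963 and 0 CPM per kb for the same genes. The alpha genes made up 23.9%, 35.8% and 26.3% of globin reads in Ythdf2 cKO replicates 1, 2 and 3, against 25%, 28.3% and 16.8% in the controls, with control replicate 1 resting on 4 reads. Reads aligned to several places are missing from these counts. The copies share 67.9% and 84.6% of their 75-base stretches in the alpha pair, against 51.5% and 56.6% in the beta pair. Alas2, Slc4a1 and Gata1 share 0. The order per kilobase and the alpha share may therefore be biased, by an amount that was not tested.

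Between the genotypes no member passed the threshold of an adjusted p under 0.05, and among all 13172 genes tested 0% did (edgeR quasi-likelihood test, Benjamini-Hochberg adjustment). All 6 members tested had a log2 fold change above 0 in the libraries labelled Ythdf2 cKO, as did 49.3% of all genes, and all 6 lay above 2, as did 0.509% of all genes. Their median was 2.42 against -0.0049 over all genes. The filter needs only some libraries to be past its cutoff. Slc4a1 passed it only through the libraries labelled Ythdf2 cKO, so its direction by genotype was largely set by the filter. The log2 fold changes were 3.75 for Hba-a1 (standard error 1.65), 3.40 for Hba-a2 (1.39), 2.39 for Hbb-bs (1.70), 2.39 for Hbb-bt (1.00), 2.45 for Alas2 (1.19) and 2.07 for Slc4a1 (1.03), each with edgeR adjusted p = 1. Without adjustment, edgeR put 2 of the 6 members, Hba-a2 and Hbb-bt, past 0.05, as it did 0.835% of all genes in the same direction and 1.62% in either.

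The differences moved with single libraries. Without Ythdf2 cKO replicate 2 the log2 fold changes were 1.03 for Hba-a1, 1.43 for Hba-a2, -0.18 for Hbb-bs, 1.70 for Hbb-bt, 1.39 for Alas2 and 1.54 for Slc4a1. Without control replicate 1 they were 3.13, 2.83, 1.79, 1.84, 1.93 and 1.52 for the same genes. Without control replicate 3 they were 4.95, 4.64, 5.47, 3.42, 4.38 and 2.92. With cage as a term in the fit they were 2.18, 2.95, 1.78, 2.33, 1.77 and 1.94 (edgeR adjusted p from 0.452 to 0.562). That fit put 3 of the 6 members, Hba-a2, Hbb-bt and Alas2, past 0.05 without adjustment, and 10.2% of all genes. Within cage 1 the library labelled Ythdf2 cKO lay above the mean of the controls for all 6 members, by 1.24 to 3.64 on a log2 scale with 2 counts added. Within cage 2 the difference ran from 0.45 to 2.04, with Ythdf2 cKO replicate 3 alone above control replicate 3 for Hba-a1, Alas2 and Slc4a1 and below it for Hba-a2, Hbb-bs and Hbb-bt. A term for a different genotype effect in the 2 cages passed for 0 of the 6 members (edgeR adjusted p from 0.581 to 0.873) and for 6 of 13172 genes.

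**Figure D2:**
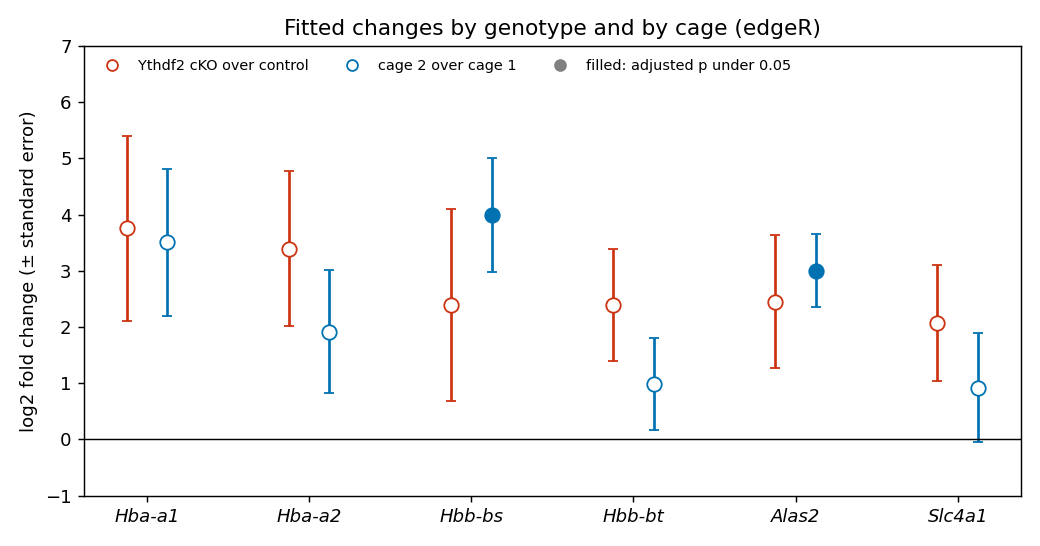
Log2 fold change (edgeR, ± standard error) of the 6 members that passed the filter, for Ythdf2 cKO over control and for cage 2 over cage 1, with filled points where the adjusted p is under 0.05. The filled points are Hbb-bs and Alas2 by cage, and all 12 values lie above 0.

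By cage, Hbb-bs and Alas2 were higher in cage 2, with genotype kept in the fit. Hbb-bs was at 63.5, 5.17 and 13.2 CPM in Ythdf2 cKO replicates 2 and 3 and control replicate 3, against 3.10, 0 and 1.01 CPM in Ythdf2 cKO replicate 1 and control replicates 1 and 2, and the cages did not overlap. The fitted difference was 3.99 ± 1.01 (log2, standard error; edgeR adjusted p = 0.0364). Alas2 was at 15.9, 6.0 and 3.77 CPM in cage 2, against 1.63, 0.264 and 0.472 CPM in cage 1, also without overlap, and differed by 3.00 ± 0.65 (log2, standard error; edgeR adjusted p = 0.0200). Of all genes tested, 7.83% were called higher in cage 2 and 3.68% lower, 11.5% in either direction, beside 2 of the 6 members. All 6 members had a log2 fold change above 0 by cage, as did 50.8% of all genes, though Hba-a1 passed the low-count filter only through the libraries of cage 2. Both calls ended when any of 4 libraries was left out, namely controls 2 and 3 and cKO replicates 1 and 2, with log2 fold changes of 4.41, 3.47, 4.55 and 3.12 for Hbb-bs (edgeR adjusted p from 0.0710 to 0.177) and 3.11, 2.75, 3.28 and 2.70 for Alas2 (0.0619 to 0.0948). Both also ended with limma-voom (adjusted p = 0.435 for Hbb-bs and 0.132 for Alas2), and that of Hbb-bs with DESeq2 (adjusted p = 0.0937).

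The other 4 members tested did not pass by cage. Hba-a1 did not overlap, at 24.1, 2.28 and 1.57 CPM in cage 2 against 0.490, 0 and 0.540 CPM in cage 1 (log2 fold change 3.51, standard error 1.31, edgeR adjusted p = 0.125). Hba-a1 was kept by the low-count filter only through the libraries of cage 2, so this lack of overlap was largely set by the filter. Its difference by cage passed with DESeq2 after the same filter (3.60, adjusted p = 0.0118) and without the low-count filter (3.48, edgeR adjusted p = 8.08e-04). Among all genes 15.1% had cages that did not overlap with cage 2 higher, and 27.3% in either direction. The log2 fold changes were 1.91 for Hba-a2, 0.99 for Hbb-bt and 0.92 for Slc4a1 (edgeR adjusted p = 0.309, 0.490 and 0.600), with standard errors of 1.09, 0.82 and 0.97, and for each of them Ythdf2 cKO replicate 1 of cage 1 lay above Ythdf2 cKO replicate 3 of cage 2.

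The share of Hbb-bs within the beta pair did not overlap between the cages. This share needs no scaling between libraries, and was examined after its values were seen. Hbb-bs made up 75.8%, 59.5% and 73.7% of the reads of the pair in Ythdf2 cKO replicates 2 and 3 and control replicate 3 of cage 2, against 21.3%, 0% and 34.9% in Ythdf2 cKO replicate 1 and control replicates 1 and 2 of cage 1. The pair held 871, 84 and 114 reads in cage 2 and 89, 3 and 43 in cage 1, so control replicate 1 allows a share of up to 70.8% (exact 95% interval). The intervals were 72.8% to 78.6%, 48.3% to 70.1% and 64.6% to 81.5% in cage 2, and 13.4% to 31.3% in Ythdf2 cKO replicate 1 and 21% to 50.9% in control replicate 2. The mean was 69.7% ± 8.84 in cage 2 and 18.7% ± 17.6 in cage 1 (SD, n = 3 each; exact two-sided permutation p = 0.1, the smallest this design can give). Between genotypes it was 52.2% ± 27.9 for the cKO libraries and 36.2% ± 36.9 in the controls (SD, n = 3 each; exact two-sided permutation p = 0.6).

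**Figure D3:**
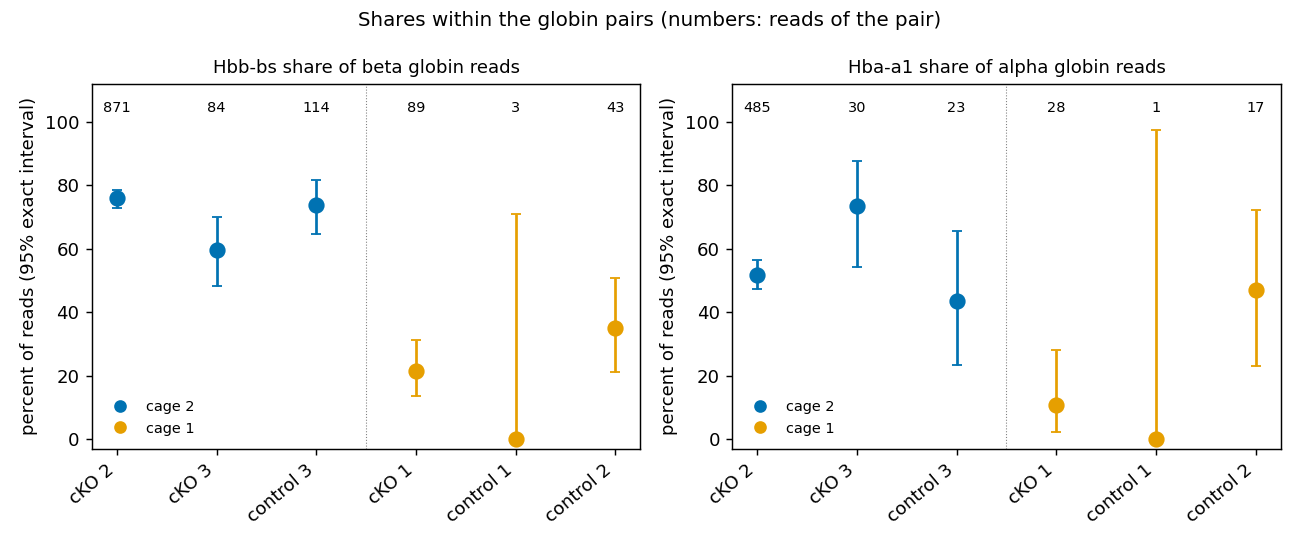
Share of Hbb-bs in the reads of the beta pair and of Hba-a1 in those of the alpha pair, per library with exact 95% intervals and the number of reads of the pair above each point, cage 2 left of cage 1. All 3 libraries of cage 2 lie above 59% for Hbb-bs and those of cage 1 below 35%, while the alpha shares of the cages overlap.

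Shares within the alpha pair overlapped. Hba-a1 gave 51.8%, 73.3% and 43.5% of the reads of its pair in cage 2, against 10.7%, 0% and 47.1% in cage 1, and control replicate 2 of cage 1 lay above control replicate 3 of cage 2 (means 56.2% ± 15.4 in cage 2 and 19.3% ± 24.7 in cage 1, SD, n = 3 each; exact two-sided permutation p = 0.2). In Ythdf2 cKO replicate 1 both second-named copies led, with 25 of 28 alpha reads from Hba-a2 and 70 of 89 beta reads from Hbb-bt. The single coding differences printed above are the places within the coding sequence where the copies can be told apart, and the copies also differ outside it.

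Other erythroid genes had few reads or none. No embryonic or theta globin gene was read: Hba-x, Hbb-y, Hbb-bh0, Hbb-bh1, Hbb-bh2, Hbq1a and Hbq1b had 0 reads in all 6 libraries. In Ythdf2 cKO replicate 2, with 1356 globin reads, Klf1, Gfi1b and Nfe2, transcription factors of red cell precursors, had 0 reads, as did Epb42, a red cell membrane protein, and Rhag, a member of the Rh complex. Over the series Gfi1b, Car1 (a red cell carbonic anhydrase) and Pklr (red cell pyruvate kinase) had 0 reads, and Klf1 had 2, both in Ythdf2 cKO replicate 1.

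Of the 24 membrane and cytoskeleton genes listed, 16 were tested and 0 were called by genotype, with 9 above 0 and a median of 0.16. By cage 2 were called higher and 2 lower in cage 2, where 7.83% of all genes were called higher and 3.68% lower. The higher ones passed the low-count filter through the 3 libraries of cage 2. They were Cd59a, a complement regulator, at 1.93 ± 0.642 CPM in cage 2 and 0.0968 ± 0.101 CPM in cage 1, and Dmtn, an actin-bundling protein, at 2.39 ± 0.653 CPM in cage 2 and 0.149 ± 0.137 CPM in cage 1 (SD, n = 3 each). The lower ones were the adducins Add1 and Add3, which many cells use.

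Haem synthesis genes other than Alas2 gave no call. Of 22 listed genes 20 were tested, and 0 were called by genotype (9 above 0, median -0.025) and 0 by cage. Fech, which inserts iron at the last step of haem synthesis, was at 30.2, 23.8 and 22.2 CPM in Ythdf2 cKO replicates 1, 2 and 3, against 18.8, 13.2 and 16.7 CPM in the controls (log2 fold change 0.65, standard error 0.26, edgeR adjusted p = 1).

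Of 25 erythroid regulators 18 were tested, with 0 called by genotype and 1 by cage, and of 30 late erythroid and red cell enzyme genes 28 were found and 19 tested, with 0 called by genotype and 2 by cage. By cage 11.5% of all genes were called, so neither list stood above that share. The regulator called was Sox6, at 48.4 ± 15.9 CPM in cage 2 and 2.36 ± 1.91 CPM in cage 1 (SD, n = 3 each; log2 fold change 4.79, standard error 0.49, edgeR adjusted p = 7.61e-04), and the enzyme list's calls included Mt1, a metallothionein. Within cage 2, Sox6 was at 30.6 and 53.4 CPM in Ythdf2 cKO replicates 2 and 3 and at 61.2 CPM in control replicate 3. Genes of haem breakdown and iron handling had 0 called by genotype, with a median log2 fold change by cage of 0.82 against 0.013 over all genes. By cage 0 of them were called lower in cage 2, and 5 of the 16 tested were called higher, against 7.83% of all genes. They were Ftl1 (ferritin light chain), Hmox1 (the inducible haem oxygenase), Slc11a2 (an iron transporter), Lrp1 (a scavenger receptor) and Cp (ceruloplasmin). Cp passed the low-count filter only through the libraries of cage 2. Hmox1 was at 13.1, 25.6 and 82.4 CPM in cage 2, against 8.16, 7.83 and 24.8 CPM in cage 1, and the cages overlapped.

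Markers of other cells differed by cage. Summed over 16 markers, melanoma genes were at 3094, 4253 and 4285 reads per 1000000 gene counts in Ythdf2 cKO replicates 2 and 3 and control replicate 3 of cage 2, against 69.1, 478 and 684 in Ythdf2 cKO replicate 1 and control replicates 1 and 2 of cage 1. Of these markers 15 of 15 tested were called higher in cage 2, against 7.83% of all genes. Gpr143 among them passed the low-count filter only through the libraries of cage 2. Ythdf2 cKO replicate 1, the lowest for melanoma genes, held more globin, at 20.9 reads per 1000000 gene counts, than Ythdf2 cKO replicate 3 at 12.3 or control replicate 3 at 15.4. Macrophage and monocyte markers summed to 166, 330 and 431 in cage 2, against 14.1, 47.4 and 125 in cage 1, with 7 of 16 called higher, against 7.83% of all genes. Of the 12 T cell and Treg markers 0 were called higher and 8 lower in cage 2, where 3.68% of all genes were called lower. Mitochondrial genes took 19.4%, 20.5% and 45.1% of gene counts in cage 2, against 10.6%, 13% and 11.9% in cage 1. The part of these cells and of the mitochondrial share in the cage differences of Hbb-bs and Alas2 was not tested.

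**Figure D4:**
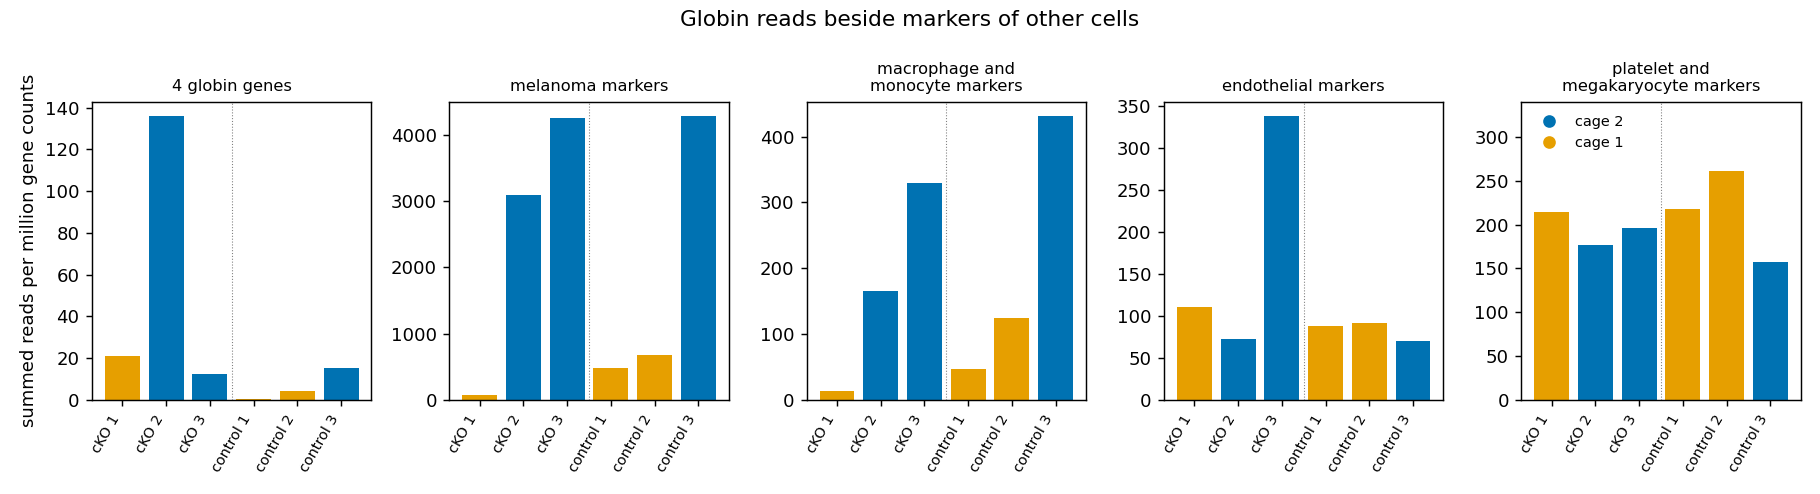
Summed reads per 1000000 gene counts of the 4 globin genes and of 4 marker lists in the 3 libraries labelled Ythdf2 cKO and the 3 controls, coloured by cage. The globin sum peaks in Ythdf2 cKO replicate 2 at 136, which is not the highest library in any of the 4 marker lists.

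Ythdf2 cKO replicate 2 was not the highest library for the sum of any other cell type listed, though single abundant genes made up most of some sums. The B and plasma cell markers summed to 143 reads per 1000000 gene counts in that library, where Ighm alone was at 104 CPM. Of the 8 genes of that list tested, 2, Jchain and Cd22, were highest in Ythdf2 cKO replicate 2, as were 12.4% of all genes tested. Endothelial markers summed to 110, 72.2 and 338 reads per 1000000 gene counts in Ythdf2 cKO replicates 1, 2 and 3, against 87.7, 91.0 and 69.7 in the controls, and their receptor Kdr had 0 reads in Ythdf2 cKO replicate 2. Platelet and megakaryocyte markers summed to 215, 176 and 196 in the cKO libraries and 218, 261 and 157 in the controls. Most of that sum was Itgb3, an integrin at 160 to 188 CPM in the cKO libraries and 188 to 224 CPM in the controls, while the defining platelet genes Gp1bb, Gp6 and Gp9 had 0 reads in all libraries. Pf4, a platelet chemokine, had 17, 4 and 21 reads in the cKO libraries and 5, 17 and 51 in the controls, and Itga2b, the platelet integrin alpha chain, had 12, 5 and 20 reads in the cKO libraries and 13, 11 and 6 in the controls. Of 18 mast cell, basophil and eosinophil markers, lineages that also use Gata1, 10 had 0 reads in all libraries, among them Cpa3, Mcpt8, Fcer1a and Ms4a2. Hdc, a histamine enzyme of those cells, was read 144 times in control replicate 1, where Gata1 was highest, against 4 to 41 times in the other libraries. Other genes of the list did not follow. Gata2 had 0 reads in control replicate 1 and 37 in Ythdf2 cKO replicate 3. Ccr3, the most abundant of the list, was highest in Ythdf2 cKO replicate 1, at 67.9 CPM, against 29.5 CPM in control replicate 1.

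Of the genes tested, 12.4% had their highest level in Ythdf2 cKO replicate 2, as did all 6 members tested. Among the non-member genes whose log2 CPM over the 6 libraries lay closest to the globin sum were Ttbk2 (Pearson r = 0.986), Zfp24 (0.965), Cr2 (0.964) and P4ha1 (0.963), given as a description over 6 libraries that share depth and scaling. Among 13172 genes, 11 had an r above 0.95, members included. The members above it were Hbb-bs (0.974), Hbb-bt (0.969) and Slc4a1 (0.974). Hba-a1 (0.892), Hba-a2 (0.9425) and Alas2 (0.896) lay below it and below the non-member genes named, though both alpha genes are part of the sum. Ttbk2, a kinase, ran from 14.2 to 23.6 CPM over the cKO libraries and from 6.43 to 13.7 CPM in the controls, where the globin sum ran from 11.8 to 130.4 CPM in the cKO libraries and from 0.352 to 21.5 CPM in the controls.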

How the data were processed

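Live CD45+ CD4+ Foxp3-GFP+ cells were sorted from tumours and libraries made with a SMARTer stranded total RNA kit, per the labels' protocols. Raw read counts per gene, without normalization, were deposited by the authors for each library. Trimmomatic 0.39, HISAT2 2.1.0, HTSeq and DESeq2 and the build mm10 are listed, per the submitters' processing notes. For the counting, no annotation release, strand setting or read length is given in the sources used here. Of 54446 genes, 54409 matched GENCODE M21. Totals leave out the rows without a gene: reads in no gene were 24.6% to 35.8% of all records, and reads aligned to several places 9.22% to 12.9%.

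Counts were filtered with filterByExpr (minimum count 10, minimum total 15), scaled by TMM and tested with the quasi-likelihood test of edgeR 4.0.16 in R 4.3.3, all 6 libraries in 1 fit. Genotype was tested alone and cage with genotype as a term, adjusted by Benjamini and Hochberg over all 13172 genes at 0.05. Values within cages add 2 counts before the log. DESeq2 1.42.0, limma-voom (limma 3.58.1), other scalings and filters, cage as a term, a replicate block and each library left out were alternatives; the interaction of genotype and cage was added after the data were seen. All pairs of libraries differed beyond counting noise (lowest chi-square over its degrees of freedom 17.4). Members and lists were chosen with earlier results of these data known. Named genes are all members, up to 4 genes of smallest p per list, markers needed to describe a cell type (the most abundant and the absent), and the 5 genes most like the globin sum, clone-like names passed over; erythroid genes with few or 0 reads were named after their values were seen. Some genes that this rule names are not reported here.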

Additional observations from a re-analysis of the deposited data

How the results depend on the processing

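By genotype 0 genes were called with edgeR (213 at an unadjusted p under 0.05), with DESeq2 (279) and with limma-voom (239), and with each library left out the count stayed at 0. Without the low-count filter 33 were called (26 higher, 7 lower). By cage 1516 were called (1031 higher, 485 lower), 2349 with DESeq2, 2347 without the filter, 849 without the genotype term and 660 to 1233 with 1 library left out. Total gene counts as the only scaling gave 647 higher and 765 lower by cage and moved the median log2 fold change of all genes to -0.32 by cage and 0.14 by genotype; without mitochondrial genes in the totals the split was 1090 and 239. The members' log2 fold changes by genotype kept their sign in every alternative run, except that of Hbb-bs, which turned to -0.18 without Ythdf2 cKO replicate 2 and ranged up to 5.47 without control replicate 3, and by cage all kept it. The Hbb-bs share of beta globin reads stayed higher in cage 2 with each library left out, by 41.5 to 59.0 percentage points against 50.9 with all 6. At a mean CPM of at least 5 the members Hba-a1, Alas2 and Slc4a1 were not tested. The replicate numbers did not pair the libraries by their deviations from the group means (r = 0.41, -0.236 and 0.547 for replicates 1, 2 and 3). With the replicate block 0 genes were called (224 at an unadjusted p under 0.05) and no member passed. Low depth limits single members, of which Slc4a1 had 100 reads in all.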

Other observations

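Ythdf2 cKO replicate 3 held genes of vessel lining that were nearly absent elsewhere. Kdr, the main receptor for vascular endothelial growth factor, was read 643 times in it, against 0 to 7 times in the other 5 libraries. Cdh5, the cadherin of endothelial junctions, was read 385 times, against 0 to 8, and Plvap 366 times, against 0 to 9. The same library held 240 reads of Aqp1, a water channel of red cells and endothelium, against 0 to 4 elsewhere, and 78 of Cygb, cytoglobin, against 0 to 5. Its 114 globin reads came to 12.3 reads per 1000000 gene counts, below Ythdf2 cKO replicate 1 and control replicate 3.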
